A study of Mus musculus with 12 samples.

Results

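The comparison described here is that of mouse Th17 cells given dexamethasone (Dex) together with interleukin-1 beta (IL-1B) against Th17 cells given Dex alone, chosen by the treatment named in the sample labels. It covers 6 of the 12 RNA samples of the study, 3 with Dex+IL-1B and 3 with Dex. All samples came from wild-type naive CD4+ T cells that were turned into Th17 cells in culture for 72 h, on plates coated with anti-CD3 and anti-CD28, in medium holding TGF-B and IL-6 plus anti-IFN-g and anti-IL-4. The agents were present for the 4 h before harvest, so the cells with Dex+IL-1B and the cells with Dex differed by IL-1B, and both had received the glucocorticoid. The remaining 6 samples, 3 with IL-1B alone and 3 untreated, entered the same statistical fit and gave the effect of IL-1B without Dex. Doses are not given in the sources used here, and no label says whether the 3 samples of a treatment were separate cultures or animals. The p-values therefore rest on the variation among the 3 libraries within each of the 4 groups, pooled in that fit. Part or all of this variation may be technical.

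IL-1B signals through the receptor chain Il1r1 and the adaptor Myd88 to the kinases of the IRAK family, to Traf6 and to the IkB kinases, which free NF-kB transcription factors from their IkB inhibitors. In Th17 cells this cytokine is known to raise production of IL-17 and of GM-CSF (gene Csf2). Dex binds the glucocorticoid receptor (gene Nr3c1), which induces one set of genes and represses many inflammatory ones, in part by opposing NF-kB and AP-1. The comparison asks which genes the cytokine still moved in cells that were exposed to the glucocorticoid.

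Messenger RNA was selected with poly-T beads and sequenced, and the deposited table gives raw reads per gene. Total counts of the 6 samples ran from 16904106 to 24106318. Levels are given as CPM, the reads of a gene as a share of all counted reads on a fixed scale, scaled between libraries, always for replicates 1, 2 and 3 in that order, and changes as log2 fold changes ± SE with 3 libraries in each group. One library stood apart in genes whose annotations lie over ribosomal RNA repeats. Gm42418, Gm26917 and Lars2 summed to 18550 CPM in Dex+IL-1B 1, against 2328 and 2862 CPM in Dex+IL-1B 2 and 3. The sum was 4249 to 5644 CPM in the Dex libraries. On a principal component analysis of the 6 libraries the first component held 48.1% of the variance and placed Dex+IL-1B at -54.74, -6.597 and -14.9 and Dex at 20.43, 29.13 and 26.67, so that Dex+IL-1B 1 lay farthest from the Dex libraries. The second component held 23.1% and placed Dex 2 at 27.68, apart from Dex 1 at 6.394 and Dex 3 at -8.418. Dex+IL-1B stood at 22.15, -25.58 and -22.23 on it. The counts of the main gene lists below are also given without Dex+IL-1B 1, and some of them without Dex 2. The samples carried Th17 markers throughout, with all 11 of the list detected. Summed over that list, levels were 1457 to 1713 CPM with Dex+IL-1B and 1253 to 1438 CPM with Dex. Il17f alone made up 319.9 to 532.5 CPM with Dex+IL-1B and 43.7 to 55.23 CPM with Dex, and Il17a was also higher. By fitted change 8 of the 11 were lower with Dex+IL-1B, with a list median of -0.11. Among these, Cd4 stood at 431.0 to 459.9 CPM with Dex+IL-1B, against 522.6 to 602.8 CPM with Dex (edgeR adjusted p = 0.0174). That p was 0.0681 without Dex+IL-1B 3 and 0.0814 without Dex 2.

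Cytokine genes (Il17a, Il17f, Il2, Csf2), NF-kB genes and their inhibitors (Nfkb2, Nfkbia, Nfkbiz), the signal transducer gene Stat5a and most of the listed genes of ribosome assembly rose in Dex-treated cells given IL-1B. Of the interferon-stimulated genes tested 16 of 36 fell, as did some integrin genes. A gene was called at a Benjamini-Hochberg adjusted p under 0.05 in edgeR's quasi-likelihood test over 13821 genes. With that rule 1188 genes, 8.6% of those tested, were higher with Dex+IL-1B and 688, or 4.98%, were lower, and the median change of all genes tested was -0.02. A change of at least 2-fold was found for 143 of the higher genes (1.03% of those tested) and 115 of the lower (0.832%). These became 92 and 52 without Dex+IL-1B 1 and 98 and 52 without Dex 2. Without Dex+IL-1B 1 the counts were 750 higher and 301 lower, without Dex+IL-1B 3 853 and 357, without Dex 2 638 and 277, and without Dex 3 814 and 425. Against a 1.5-fold change rather than no change, 69 genes were higher and 4 lower. In 37.6% of all genes tested the 3 values with Dex+IL-1B and the 3 with Dex did not overlap, the share against which the groups of any one gene should be read.

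Among the receptors and proximal signalling genes of the IL-1 family, 5 of the 24 tested were higher with Dex+IL-1B and 0 lower. That is 20.8% called, against 13.6% of all genes tested, and the list median was 0.09. Those 5 were inhibitors and signal carriers rather than the receptor itself. Il1rn (ENSMUSG00000026981, chromosome 2, 24336853 to 24351494 on GRCm38), which encodes the secreted receptor antagonist, stood at 16.1, 9.46 and 11.1 CPM with Dex+IL-1B, against 1.58, 0.981 and 1.82 CPM with Dex. The lowest library with Dex+IL-1B thus lay well above the highest with Dex, a rise of 3.05 ± 0.26 (adjusted p = 1.52e-05). Il1r2, the decoy receptor that binds IL-1 without signalling and a known glucocorticoid-induced gene, was measured at 10.2, 10.2 and 13.2 CPM with Dex+IL-1B, against 6.31, 5.97 and 6.29 CPM with Dex and rose by 0.85 ± 0.15 (adjusted p = 0.00258). Smaller rises were those of Tab2, an adaptor of the kinase TAK1, by 0.71 ± 0.09, of Irak2, a kinase of the IL-1 receptor complex, by 0.51 ± 0.10, and of Ube2n, a ubiquitin-conjugating enzyme that works with Traf6, by 0.35 ± 0.07. The signalling receptor Il1r1 had 10.8, 6.48 and 9.86 CPM with Dex+IL-1B, against 12.4, 28.7 and 13.0 CPM with Dex. Its groups did not overlap, yet Dex 2 was far above the other Dex libraries and the lower level with Dex+IL-1B was not called (adjusted p = 0.105). The list had the same 5 and 0 calls without Dex+IL-1B 1.

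Both genes of NF-kB itself and genes that switch it off rose. Of 12 subunits and kinases tested 5 were higher and 0 lower (41.7% called, against 13.6% of all genes tested). Their list median was 0.20, against -0.02 over all genes. Of 20 feedback genes 10 were higher and 1 lower (55.0% called, median 0.37). Without Dex+IL-1B 1 these counts were 4 and 0 for the subunits and kinases, and 9 and 1 for the feedback genes. Promoters are shown for the genes called higher that held a kB motif of GGGA, any 2 bases and TTCC, taken in order of adjusted p among the genes named here and the feedback list, so that the sequence can be read beside the change. They are RefSeq windows on GRCm38.p6, from 250 bases before to 50 after the annotated start, written 5′ to 3′ on the strand of the gene, with matches to the motif on either strand in capitals. Nfkb2 lies on the plus strand (chr19:46305445-46305744), Nfkbia on the minus strand (chr12:55492598-55492897), Cxcl10 on the minus strand (chr5:92348840-92349139), Ltb on the plus strand (chr17:35194257-35194556) and Mthfd1 on the plus strand (chr12:76254982-76255281).
Nfkb2: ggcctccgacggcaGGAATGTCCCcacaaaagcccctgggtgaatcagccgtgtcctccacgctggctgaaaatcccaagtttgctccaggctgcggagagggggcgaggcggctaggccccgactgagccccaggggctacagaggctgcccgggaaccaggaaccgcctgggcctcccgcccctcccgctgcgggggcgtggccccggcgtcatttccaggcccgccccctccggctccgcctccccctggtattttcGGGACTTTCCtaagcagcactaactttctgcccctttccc
Nfkbia: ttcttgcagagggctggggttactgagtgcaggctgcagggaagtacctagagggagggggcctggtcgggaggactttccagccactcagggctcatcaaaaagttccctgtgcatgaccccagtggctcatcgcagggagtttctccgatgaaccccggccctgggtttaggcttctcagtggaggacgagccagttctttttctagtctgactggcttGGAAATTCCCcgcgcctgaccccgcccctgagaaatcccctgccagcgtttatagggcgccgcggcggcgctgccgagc
Cxcl10: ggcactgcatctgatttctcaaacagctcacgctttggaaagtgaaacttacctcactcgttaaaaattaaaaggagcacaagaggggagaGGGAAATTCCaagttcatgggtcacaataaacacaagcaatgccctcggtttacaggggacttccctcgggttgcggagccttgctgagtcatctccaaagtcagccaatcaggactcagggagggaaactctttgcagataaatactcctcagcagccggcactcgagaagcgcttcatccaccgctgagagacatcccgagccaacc
Ltb: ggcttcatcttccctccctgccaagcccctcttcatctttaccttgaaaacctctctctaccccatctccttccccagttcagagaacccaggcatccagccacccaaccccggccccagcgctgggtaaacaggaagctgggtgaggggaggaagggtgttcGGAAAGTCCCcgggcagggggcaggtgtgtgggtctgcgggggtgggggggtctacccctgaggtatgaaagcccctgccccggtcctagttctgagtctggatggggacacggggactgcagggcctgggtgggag
Mthfd1: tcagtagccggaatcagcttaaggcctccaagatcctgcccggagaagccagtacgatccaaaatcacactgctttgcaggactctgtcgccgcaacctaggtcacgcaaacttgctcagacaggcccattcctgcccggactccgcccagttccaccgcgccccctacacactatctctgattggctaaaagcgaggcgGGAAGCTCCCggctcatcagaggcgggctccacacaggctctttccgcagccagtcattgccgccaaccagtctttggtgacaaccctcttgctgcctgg
In Nfkb2 a match began 236 bases before the start and another 10 bases after it, and in Nfkbia the match began 29 bases, in Cxcl10 159, in Ltb 87 and in Mthfd1 50 bases before the start. The motif was present in 6.25% of the genes that rose at least 2-fold and had a window (7 of 112), in 2.32% of all higher genes (22 of 948), in 1.87% of lower genes (10 of 536) and in 1.78% of all genes tested (178 of 10021). In the feedback list 3 of 18 genes with a window (16.7%) held it, and of these 3 only Nfkbia was called higher. A looser motif of GGGA, any 4 bases and CC, which every match of the first also meets, was in 33.0% of the genes that rose at least 2-fold, 30.1% of higher genes, 30.4% of lower genes and 3009 of the 10021 genes tested that had a window. A match is a string of letters and not a measured binding site, and these shares carry no test.

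Nfkb2 (ENSMUSG00000025225, chromosome 19, 46304320 to 46312385), the precursor of the p52 subunit, was measured at 559.9, 557 and 563 CPM with Dex+IL-1B, against 198, 174 and 190.0 CPM with Dex. The 3 values of a group lay close together, and the rise was 1.58 ± 0.09 (adjusted p = 1.7e-07). Relb, the usual partner of p52, rose by 0.84 ± 0.09, Nfkb1, which encodes the p50 precursor, by 0.67 ± 0.10, and the related kinase gene Ikbke by 0.58 ± 0.15. The call of Ikbke was lost when any 1 of Dex+IL-1B 2 and 3 and Dex 1 and 3 was left out (adjusted p = 0.0641 to 0.0979). Rel, a subunit long tied to T cell activation, rose by 0.88 ± 0.21 (adjusted p = 0.016) but was not called when any 1 of Dex+IL-1B 1 and Dex 2 was left out (adjusted p = 0.055 and 0.0567). Rela, the kinases Chuk and Ikbkb, Ikbkg, Tbk1, Map3k14 and Map3k8 were not called.

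Nfkbia (ENSMUSG00000021025, chromosome 12, 55489410 to 55492647), the gene of the inhibitor IkB-alpha and a standard NF-kB target, had 367, 388 and 431 CPM with Dex+IL-1B, against 114, 130.1 and 106 CPM with Dex. Every library with Dex+IL-1B was well above every one with Dex, with a rise of 1.76 ± 0.12 (adjusted p = 2.6e-06). Nfkbiz, whose nuclear product IkB-zeta is needed for full Il17a transcription in mouse Th17 cells, was measured at 135, 165 and 182 CPM with Dex+IL-1B, against 51.8, 36.9 and 65.6 CPM with Dex. It rose by 1.65 ± 0.23 (adjusted p = 0.000932), with Dex 2 the lowest library. Tnfaip3, which encodes the deubiquitinase A20, rose by 1.08 ± 0.13 and its binding partner Tnip1 by 1.06 ± 0.10. Birc3, a ubiquitin ligase of the cIAP family, rose by 0.84 ± 0.08 and the IkB gene Nfkbib by 0.85 ± 0.08. The other higher members were the IkB gene Nfkbie at 0.66 ± 0.10, the adaptors Traf1 at 0.57 ± 0.10 and Traf3 at 0.43 ± 0.09, and Tnip3, a relative of Tnip1, at 1.11 ± 0.30. Tnip3 was not called when any 1 of Dex+IL-1B 1 and 3 and Dex 1, 2 and 3 was left out (adjusted p = 0.0619 to 0.0922). Tnip2, another relative, was the lower member at -0.51 ± 0.12, and was not called when Dex 2 was left out (adjusted p = 0.063). Among 12 genes of mRNA decay tested (8.33% called), the RNase gene Zc3h12a (regnase-1, which degrades cytokine transcripts) was the 1 called, at 52.4, 62.4 and 64.9 CPM with Dex+IL-1B, against 17.4, 19.7 and 21.8 CPM with Dex, a rise of 1.61 ± 0.12 (adjusted p = 4.41e-06).

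The Th17 cytokine genes were the list with the largest median change described here, 1.45 over 9 tested members. Of these 6 were higher and 0 lower (66.7% called, against 13.6% of all genes tested), the same counts as without Dex+IL-1B 1. Il17a (ENSMUSG00000025929, chromosome 1, 20730905 to 20734496), which encodes the signature cytokine of these cells, was measured at 152, 77.5 and 95.6 CPM with Dex+IL-1B, against 16.1, 8.96 and 15.9 CPM with Dex. The 2 groups were far apart, and Dex+IL-1B 1 was the highest library. Its rise was 2.98 ± 0.32 (adjusted p = 0.00027). Il17f (ENSMUSG00000041872, chromosome 1, 20777146 to 20790617), the neighbouring gene of the IL-17 family, had 533, 320.1 and 441 CPM with Dex+IL-1B, against 43.7, 55.3 and 50.1 CPM with Dex. It rose by 3.12 ± 0.25 (adjusted p = 1.74e-05), with the same order of libraries within the Dex+IL-1B group. Ccl20, a chemokine that draws CCR6-bearing cells, stood at 42.2, 30.7 and 37.0 CPM with Dex+IL-1B, against 18.4, 18.6 and 17.7 CPM with Dex and rose by 1.01 ± 0.11 (adjusted p = 8.32e-05). Il21, a cytokine that supports Th17 cells and B cells, had 321, 345 and 374 CPM with Dex+IL-1B, against 252, 255 and 270.3 CPM with Dex. These groups were separate but closer, with a rise of 0.42 ± 0.08 (adjusted p = 0.00475).

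In the same list Csf2 and Il22 were close to silent with Dex. Csf2, the gene of GM-CSF, had 31, 40 and 62 reads with Dex+IL-1B, against 0, 1 and 6 reads with Dex. The groups did not overlap, and the fitted rise of 4.33 ± 0.73 (adjusted p = 0.00219) rests on 7 reads in the Dex group, with 6.25 when Dex 3 was left out. Il22, whose product acts on epithelial cells, had 14, 38 and 20 reads with Dex+IL-1B, against 0, 0 and 8 reads with Dex and rose by 3.26 ± 0.87 (adjusted p = 0.0239). It was not called when any 1 of Dex+IL-1B 2 and Dex 1 and 2 was left out (adjusted p = 0.0732, 0.079 and 0.0924), and the fitted change was 7.63 without Dex 3. Il24, Tgfb1 and Tgfb3 were not called, and Il9 and Il10 were too low to be tested.

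Among 25 other T cell cytokine and chemokine genes tested, 7 were higher and 2 lower, with a median of 0.37. The share called was 36.0%, against 13.6% of all genes tested. Il2 (ENSMUSG00000027720, chromosome 3, 37120523 to 37125959), the gene of the T cell growth factor, was measured at 40.4, 35.8 and 42.0 CPM with Dex+IL-1B, against 3.92, 1.29 and 4.40 CPM with Dex. The Dex+IL-1B values were within a narrow band and far above those with Dex, a rise of 3.61 ± 0.31 (adjusted p = 3.28e-05). Cxcl10, a chemokine best known as interferon-induced, stood at 2.27, 1.66 and 2.28 CPM with Dex+IL-1B, against 0.512, 0.312 and 0.484 CPM with Dex and rose by 2.22 ± 0.33 (adjusted p = 0.000932). Ifng, the signature cytokine of Th1 cells, had 15, 14 and 35 reads with Dex+IL-1B, against 4, 0 and 0 reads with Dex. Its rise of 4.03 ± 0.80 (adjusted p = 0.00538) was thus that of a gene with 4 reads in the Dex group, and the fitted change was 7.48 without Dex 1, where no Dex read was left. Tnfsf11 (RANKL) rose by 0.89 ± 0.17 and Ltb (lymphotoxin beta) by 0.55 ± 0.08, both members of the TNF family. Cd40lg, another member, was called at 0.44 ± 0.12 but not when any 1 of Dex+IL-1B 1 and 3 and Dex 1, 2 and 3 was left out (adjusted p = 0.0581 to 0.118). The neutrophil chemokine gene Cxcl2 had 12, 11 and 14 reads with Dex+IL-1B, against 0, 0 and 1 reads with Dex and was called higher (adjusted p = 0.0101), though not when Dex 2 was left out (adjusted p = 0.05). Fasl, the death ligand, was lower at a fitted -2.47 ± 0.58 (adjusted p = 0.0124) at 3, 7 and 1 reads with Dex+IL-1B, against 24, 12 and 35 reads with Dex, a value that was -3.19 without Dex+IL-1B 2 and not called when any 1 of Dex+IL-1B 3 and Dex 3 was left out (adjusted p = 0.054 and 0.0549). Ccl4, a chemokine gene with near-identical relatives whose reads could be split, was lower at -0.96 ± 0.24 and was not called when any 1 of Dex+IL-1B 1 and Dex 1 and 2 was left out (adjusted p = 0.0809, 0.0659 and 0.0782).

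**Figure D1:**
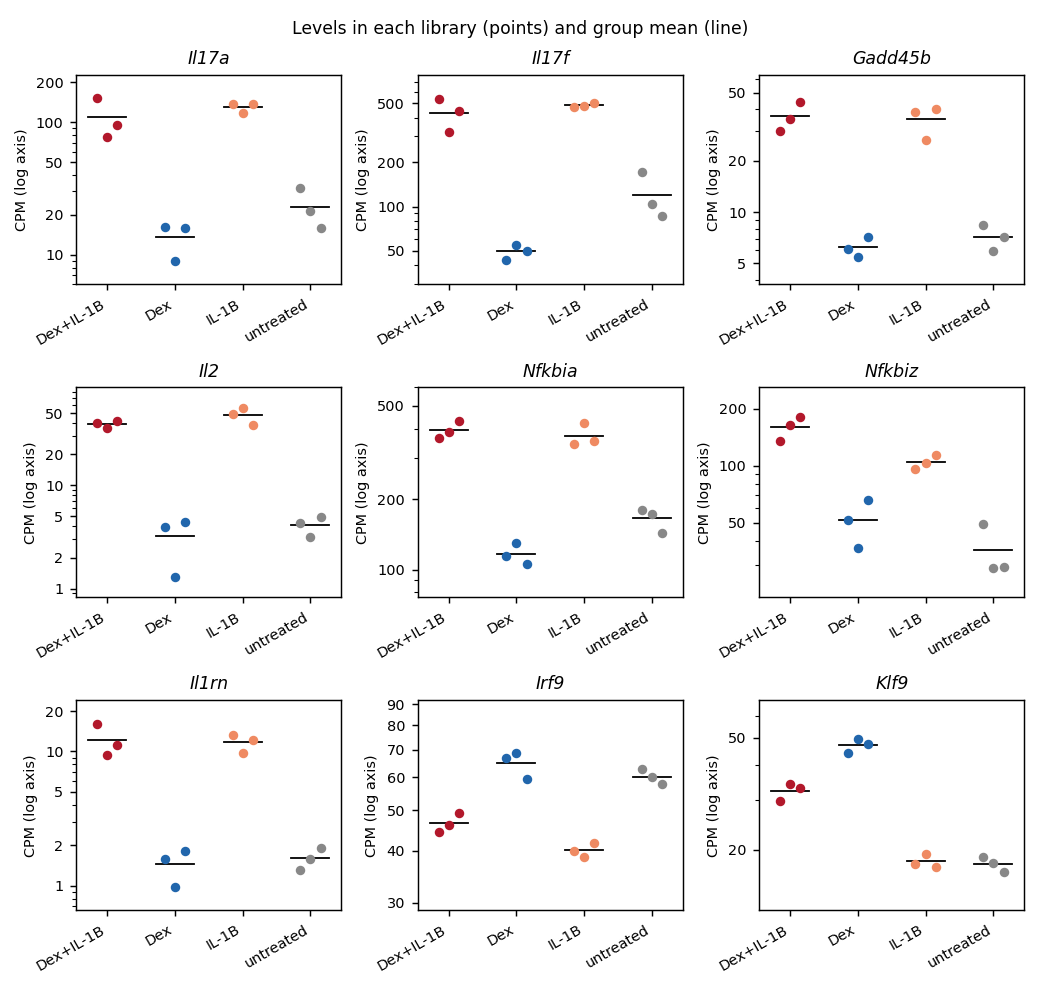
Level of 9 genes in CPM (log axes) in each library of the Dex+IL-1B, Dex, IL-1B and untreated groups, with points for the libraries and lines for group means. Il17a, Il17f, Gadd45b, Il2, Nfkbia, Nfkbiz and Il1rn lie higher with Dex+IL-1B than with Dex, and Irf9 and Klf9 lower, with no overlap between these 2 groups in any panel.

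JAK-STAT and PIM genes moved in both directions. Of 25 tested, 5 were higher and 3 lower (32.0% called, against 13.6% of all genes tested), with a median near 0. Stat5a (ENSMUSG00000004043, chromosome 11, 100859351 to 100885169), which carries the IL-2 signal, was measured at 509, 414 and 464 CPM with Dex+IL-1B, against 135, 133 and 137 CPM with Dex. Values within a group were close and the groups far apart, with a rise of 1.78 ± 0.09 (adjusted p = 9.69e-08). The neighbouring Stat5b rose by 0.46 ± 0.08 (adjusted p = 0.00291), and the kinase gene Jak2 by 0.50 ± 0.10. The survival kinase gene Pim2 had 469.9, 535 and 542 CPM with Dex+IL-1B, against 222, 211 and 206 CPM with Dex and rose by 1.28 ± 0.10 (adjusted p = 9e-06), and the related Pim1 rose by 0.71 ± 0.12. Among the lower genes were Stat2, which carries interferon signals, at -0.50 ± 0.11, and the feedback inhibitor gene Socs3 at -0.64 ± 0.15. The call of Socs3 was lost when any 1 of Dex+IL-1B 1 and Dex 2 was left out (adjusted p = 0.0639 and 0.0724).

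Among survival genes the largest rises were those of Gadd45b and Bcl2l1. Of 21 survival and death genes tested, 5 were higher and 1 lower (28.6% called, against 13.6% of all genes tested, median 0.08). Gadd45b, a stress gene that NF-kB is known to induce, was measured at 29.8, 34.9 and 44.4 CPM with Dex+IL-1B, against 6.06, 5.44 and 7.18 CPM with Dex, and rose by 2.55 ± 0.20 (adjusted p = 9.21e-06). Bcl2l1, the gene of the anti-apoptotic protein BCL-XL, had 188, 153 and 167 CPM with Dex+IL-1B, against 66.9, 34.8 and 55.5 CPM with Dex and rose by 1.69 ± 0.20 (adjusted p = 0.00036). Both genes had all Dex+IL-1B libraries above all Dex libraries by a wide margin. Cflar, whose product blocks caspase-8, was called at 0.29 ± 0.09, a call lost when any 1 of Dex+IL-1B 1 and 3, Dex 1, 2 and 3, IL-1B 1, untreated 2 and 3 was left out (adjusted p = 0.0509 to 0.127). The pro-apoptotic gene Bid also rose, by 0.80 ± 0.19, and the pro-apoptotic Bad was lower at -0.48 ± 0.12, not called when any 1 of Dex+IL-1B 1 and Dex 2 was left out (adjusted p = 0.0666 and 0.0632).

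Genes of ribosome assembly had the largest share of called members among the lists here. Of 35 MYC and ribosome biogenesis genes 27 were higher and 1 lower (80.0% called, against 13.6% of all genes tested), with a median of 0.78, and without Dex+IL-1B 1 the counts were 26 and 1. Myc itself, the transcription factor that drives the group, was measured at 431, 401 and 457 CPM with Dex+IL-1B, against 299, 209.6 and 311 CPM with Dex and rose by 0.65 ± 0.14 (adjusted p = 0.00772). Nop56, a core protein of the particles that modify ribosomal RNA, had 484, 349.5 and 399 CPM with Dex+IL-1B, against 214, 180.1 and 213 CPM with Dex. It rose by 1.02 ± 0.13 (adjusted p = 0.0005), with the Dex+IL-1B values clear of the Dex values. Rrs1 and Mrto4, which act in large subunit assembly, rose by 0.97 ± 0.12 and 0.79 ± 0.10, and the nucleolar gene Nop16 by 0.91 ± 0.12. The RNA polymerase I subunit gene Polr1b had the largest change, 1.34 ± 0.26. The lower member was Mxd4, a MAX-binding antagonist of MYC, at -1.11 ± 0.20. Summed over the list, levels were 11551, 8598 and 9235 CPM with Dex+IL-1B, against 6674, 5995 and 6410 CPM with Dex, so that Dex+IL-1B 1, the library high in genes overlapping ribosomal RNA, was also the highest in this list.

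**Figure D2:**
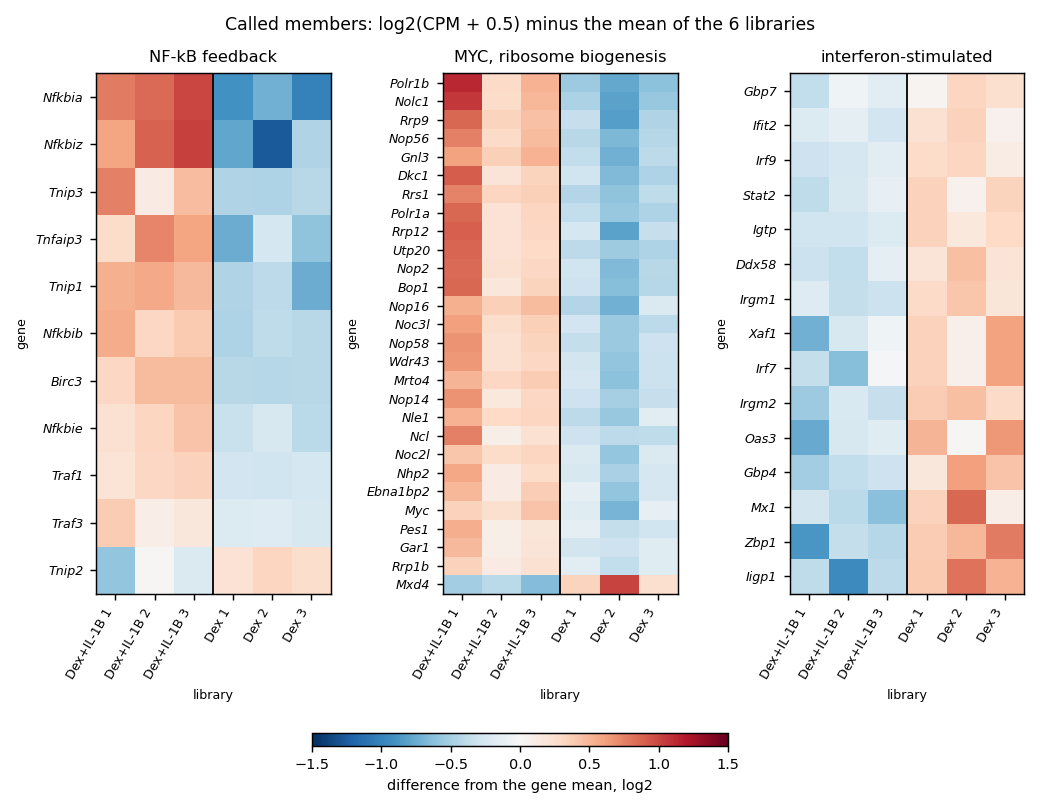
Level of called members of 3 gene lists in the 6 libraries, as log2(CPM + 0.5) minus the mean of the 6 libraries (colour), with the 3 Dex+IL-1B libraries left of the line and the 3 Dex libraries right of it. The 10 feedback genes and 27 MYC and ribosome biogenesis genes called higher are red on the left, most strongly in Dex+IL-1B 1 for the ribosome genes, and the 15 interferon-stimulated genes shown, of the 16 called, are blue on the left.

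In other biosynthetic lists the median changes were smaller. Of 22 tRNA synthetase genes, whose products load amino acids on tRNAs, 14 were higher and 0 lower (63.6% called, against 13.6% of all genes tested). The called members changed by 0.37 to 0.56, and the list median was 0.41. The count of 14 was 11 without Dex+IL-1B 1 or Dex 3 and 5 without Dex 2. Tars rose by 0.53 ± 0.10 (adjusted p = 0.00363) and Farsb by 0.50 ± 0.09 (adjusted p = 0.00336). Of 27 amino acid and one-carbon genes 7 were higher and 0 lower (25.9% called, median 0.29). Shmt1, an enzyme of serine and folate metabolism, stood at 125, 89.0 and 99.9 CPM with Dex+IL-1B, against 58.3, 41.2 and 56.9 CPM with Dex and rose by 1.00 ± 0.14 (adjusted p = 0.000601). Mthfd1, the folate enzyme whose promoter is printed above, rose by 0.81 ± 0.14, the arginine transporter gene Slc7a1 by 0.85 ± 0.18, and Cth, which makes cysteine, by 0.78 ± 0.14. Of 30 sterol and fatty acid genes 6 were higher and 0 lower (20.0% called, median 0.10), a count of 1 without Dex 2 and 11 without IL-1B 2. Hmgcs1, an early enzyme of cholesterol synthesis, rose by 0.44 ± 0.10 (adjusted p = 0.00797). In contrast 1 of 28 glycolysis and hypoxia genes was called (3.57%, below the 13.6% of all genes tested). This was the hexokinase gene Hk2 at 0.89 ± 0.26 (adjusted p = 0.0406). Hk2 was not called when any 1 of Dex+IL-1B 1 and 3, Dex 1, 2 and 3, untreated 2 was left out (adjusted p = 0.0532 to 0.139). In the 29 cell cycle genes tested 1 was higher (Mcm2, 0.37 ± 0.09) and 1 lower (Ccnb2, -0.35 ± 0.10), or 6.9% called, also below that share. Neither was called without Dex+IL-1B 1 or without Dex 2.

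**Figure D3:**
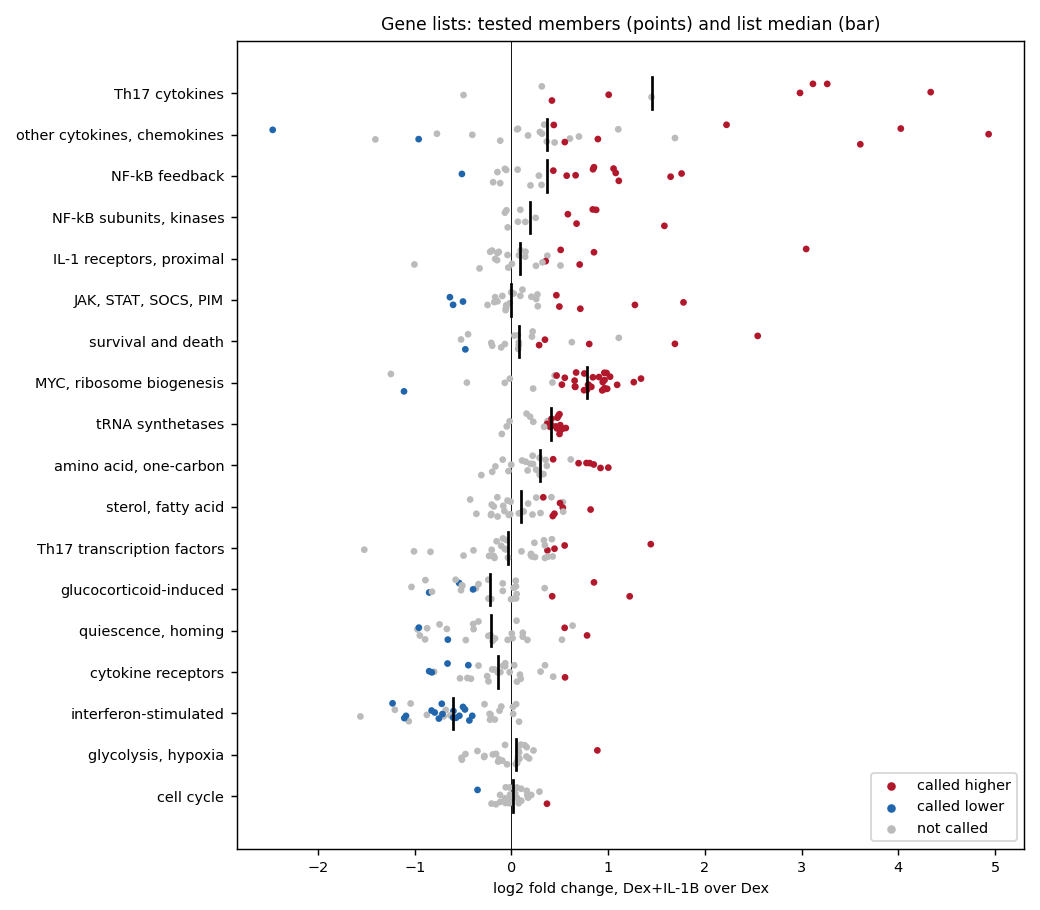
Log2 fold change of Dex+IL-1B over Dex (horizontal axis) for the tested members of 18 gene lists (rows), coloured by whether the member was called higher, called lower or not called, with a bar at the list median. Th17 cytokines and MYC and ribosome biogenesis genes lie right of 0, with medians of 1.45 and 0.78, and interferon-stimulated genes lie left of it, with a median of -0.60.

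Of 33 Th17 transcription factor genes tested 4 were higher and 0 lower, 12.1% of the list and so near the 13.6% of all genes, with a median of -0.04 and 7 called without IL-1B 2. Batf, an AP-1 family factor required for Th17 cells in mice, was measured at 153, 112 and 129 CPM with Dex+IL-1B, against 45.8, 50.5 and 48.7 CPM with Dex. It rose by 1.44 ± 0.14 (adjusted p = 3.91e-05), and its groups were far apart. Satb1, a chromatin organiser, rose by 0.55 ± 0.09 (adjusted p = 0.00157). Irf4, the partner of BATF, rose by 0.37 ± 0.09 (adjusted p = 0.0148) but was not called when any 1 of Dex+IL-1B 3 and Dex 2 was left out (adjusted p = 0.0516 and 0.0701). Skil, a repressor of SMAD signalling, rose by 0.45 ± 0.11 (adjusted p = 0.0174) but was not called when any 1 of Dex+IL-1B 2 and Dex 2 was left out (adjusted p = 0.0527 and 0.0834). Il23r, the receptor gene of the cytokine that maintains Th17 cells, had 29.5, 29.3 and 23.6 CPM with Dex+IL-1B, against 29.4, 29.0 and 29.0 CPM with Dex, with overlapping groups and a difference of -0.09 ± 0.18 (adjusted p = 0.806). Foxp3, the factor of regulatory T cells, was low in both groups, at 1.39, 1.36 and 1.39 CPM with Dex+IL-1B, against 1.54, 1.74 and 1.45 CPM with Dex, and was not called (adjusted p = 0.715).

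Calls among cytokine receptor genes depended on single libraries. Of 27 tested 1 was higher and 4 lower (18.5% called, near the 13.6% of all genes tested), with a median of -0.14. The total was 2 without Dex+IL-1B 1, 1 without Dex+IL-1B 3 and 0 without Dex 2. Il2ra, the high-affinity chain of the IL-2 receptor, rose by 0.55 ± 0.14 (adjusted p = 0.019) and was not called when any 1 of Dex+IL-1B 3 and Dex 2 was left out (adjusted p = 0.0636 and 0.0625). Ifngr1, a chain of the IFN-g receptor, had 41.2, 66.4 and 58.5 CPM with Dex+IL-1B, against 84.7, 110.2 and 99.8 CPM with Dex and changed by -0.82 ± 0.18 (adjusted p = 0.0101), a call lost when Dex 2 was left out (adjusted p = 0.0519). Il7r, a chain of the IL-7 receptor, stood at 79.7, 131 and 121 CPM with Dex+IL-1B, against 156, 287 and 156 CPM with Dex, where Dex 2 was the highest library by far. Its change of -0.85 ± 0.23 (adjusted p = 0.0306) was not called when any 1 of Dex+IL-1B 1 and 3, Dex 2, IL-1B 2 was left out (adjusted p = 0.0552 to 0.119). The remaining lower members were Il17ra, a chain of the IL-17 receptor, at -0.66 ± 0.20 and Tgfbr2, a TGF-B receptor chain, at -0.45 ± 0.12. The call of Il17ra was lost when any 1 of Dex+IL-1B 1, 2 and 3, Dex 2, IL-1B 1, 2 and 3, untreated 2 was left out (adjusted p = 0.0559 to 0.167), and that of Tgfbr2 when any 1 of Dex+IL-1B 1 and 3 and Dex 2 and 3 was left out (adjusted p = 0.0558 to 0.149). Among activation and inhibitory receptors the early activation marker Cd69 had 137, 131 and 147 CPM with Dex+IL-1B, against 45.3, 43.7 and 48.2 CPM with Dex, values that were far apart and tight within each group, and rose by 1.60 ± 0.08 (adjusted p = 9.69e-08). The inhibitory receptor gene Btla rose by 0.60 ± 0.13 (adjusted p = 0.00764). Nt5e, which encodes the adenosine-producing enzyme CD73, was measured at 40.7, 67.2 and 60.8 CPM with Dex+IL-1B, against 108, 128 and 117 CPM with Dex and changed by -1.06 ± 0.18 (adjusted p = 0.00254). By list, 2 of 23 costimulatory and inhibitory receptor genes were higher and 1 lower (13.0% called, against 13.6% of all genes). Of 17 regulatory T cell genes 1 was higher and 2 lower (17.6%), with 1 call left without Dex+IL-1B 3 or without Dex 2, and of 14 Th1 genes 1 was higher and 2 lower (21.4%), with 1 left without Dex+IL-1B 3. Of 27 quiescence and homing genes 2 were higher and 2 lower (14.8%), or 2 and 5 without Dex 1 and 3 and 4 without untreated 1. These shares were close to that of all genes or rested on 3 genes. Among the lower ones was S1pr1, the receptor for the lipid that draws lymphocytes out of lymph nodes, at -0.96 ± 0.28, a call lost when any 1 of Dex+IL-1B 1, 2 and 3, Dex 2 and 3, IL-1B 1, 2 and 3, untreated 2 was left out (adjusted p = 0.0553 to 0.162).

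Most of the listed genes tied to glucocorticoid induction were not called. Of 28 tested 3 were higher, 3 lower and 22 not called (21.4% called, against 13.6% of all genes), with a median of -0.22, and the total of 6 was 2 without Dex+IL-1B 1, 3 without Dex+IL-1B 3, 3 without Dex 2 and 3 without Dex 3. Klf9 (ENSMUSG00000033863, chromosome 19, 23141226 to 23168134), a transcription factor gene driven directly by the glucocorticoid receptor, was measured at 29.7, 34.2 and 33.2 CPM with Dex+IL-1B, against 44.3, 49.6 and 47.6 CPM with Dex. The groups did not overlap, and the change was -0.54 ± 0.09 (adjusted p = 0.00234). The level with Dex+IL-1B still lay above both groups without Dex, where Klf9 had 17.7, 19.3 and 17.4 CPM with IL-1B alone, against 18.8, 17.9 and 16.7 CPM in untreated cells. Tsc22d3, the gene of the glucocorticoid-induced leucine zipper GILZ, stood at 25.7, 79.1 and 57.5 CPM with Dex+IL-1B, against 82.9, 153 and 98.1 CPM with Dex. Here the groups did not overlap, yet the spread within each was wide and the change of -1.03 ± 0.47 was not called (adjusted p = 0.183). Fkbp5, a co-chaperone of the receptor, had 201, 182 and 171 CPM with Dex+IL-1B, against 209, 243 and 188 CPM with Dex and overlapping groups (change -0.21 ± 0.10, adjusted p = 0.174). The clock gene Per1, at 87.1, 111 and 115 CPM with Dex+IL-1B, against 99.4, 118 and 117 CPM with Dex, and the phosphatase gene Dusp1, at 17.2, 23.7 and 23.8 CPM with Dex+IL-1B, against 20.0, 19.7 and 23.3 CPM with Dex, also overlapped between the groups and were not called (adjusted p = 0.738 and 0.873). Cebpd, a transcription factor gene, rose by 1.22 ± 0.30 (adjusted p = 0.0169) and was not called when any 1 of Dex+IL-1B 1 and Dex 2 and 3 was left out (adjusted p = 0.0741, 0.0537 and 0.0715). The other higher members were Il1r2, described above, and the corepressor gene Tle3 at 0.42 ± 0.13, which was not called when any 1 of Dex+IL-1B 1 and 3, Dex 1 and 3, untreated 2 was left out (adjusted p = 0.0617 to 0.161), and the other lower members were Il7r and Nr3c1. Nr3c1, the receptor gene, is in the list although glucocorticoids often lower it in other cells. It had 44.0, 52.1 and 43.2 CPM with Dex+IL-1B, against 61.3, 59.6 and 62.5 CPM with Dex and changed by -0.40 ± 0.12 (adjusted p = 0.0374), a call lost when any 1 of Dex+IL-1B 1 and 3, Dex 1, 2 and 3, untreated 2 was left out (adjusted p = 0.0585 to 0.141). Of 17 genes of the receptor machinery tested, Nr3c1 among them, 4 were higher and 1 lower (29.4% called, against 13.6% of all genes). Without Dex+IL-1B 1 the counts were 2 and 0. Among the chaperones Stip1 rose by 0.75 ± 0.13 (adjusted p = 0.00184) and Fkbp4 by 0.59 ± 0.11 (adjusted p = 0.00293). Hsp90aa1 and Ptges3 each lost their call when any 1 of Dex+IL-1B 1 and 3 and Dex 1, 2 and 3 was left out. Hsp90ab1 was not called. A lower level of any of these transcripts in bulk RNA cannot tell fewer cells with the transcript apart from less of it in each cell.

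Interferon-stimulated genes were called in 1 direction, lower. Of 36 tested 0 were higher and 16 lower, 44.4% of the list against 13.6% of all genes tested, with a median of -0.60. Without Dex+IL-1B 1 the counts were 0 and 11, and the total was 10 without Dex+IL-1B 3. Irf9, the DNA-binding part of the interferon-activated complex ISGF3, was measured at 44.3, 46.1 and 49.4 CPM with Dex+IL-1B, against 66.9, 68.7 and 59.6 CPM with Dex. The groups were separate, and the change was -0.48 ± 0.08 (adjusted p = 0.00268). Zbp1, a sensor of left-handed nucleic acids, had 15.3, 22.1 and 21.1 CPM with Dex+IL-1B, against 37.1, 40.3 and 49.3 CPM with Dex and changed by -1.11 ± 0.15 (adjusted p = 0.000558). Iigp1 and Irgm2, immunity-related GTPase genes from a family with near-identical members, changed by -1.23 ± 0.19 and -0.75 ± 0.11. Summed over the list, however, levels were 2139, 1751 and 1936 CPM with Dex+IL-1B, against 1902, 2826 and 1863 CPM with Dex, which overlap, with Dex 2 the highest. By fitted change 32 of the 36 were lower and 4 higher, against 7276 lower of all 13821 genes tested. The calls concern 16 single genes and not the list as a sum.

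The 12 largest falls, taken among called genes whose groups did not overlap and whose higher group reached 5 CPM, were smaller than the 12 largest rises. Fry, the gene of a large microtubule-binding protein, had 4.16, 6.14 and 4.34 CPM with Dex+IL-1B, against 14.6, 11.3 and 10.8 CPM with Dex and changed by -1.32 ± 0.19 (adjusted p = 0.000967). Fry was 1 of the 4 lower genes past a 1.5-fold change. Map2k6, a kinase that activates p38, stood at 3.85, 8.14 and 7.16 CPM with Dex+IL-1B, against 16.7, 15.3 and 16.1 CPM with Dex and changed by -1.31 ± 0.26 (adjusted p = 0.00511). Ldhd, a mitochondrial D-lactate dehydrogenase gene, had 4.16, 8.52 and 9.52 CPM with Dex+IL-1B, against 16.5, 18.8 and 18.2 CPM with Dex and changed by -1.25 ± 0.22 (adjusted p = 0.00296). In both, Dex+IL-1B 1 was the lowest library. Further falls were those of Dysf, the gene of the membrane repair protein dysferlin, at -1.41 ± 0.26, of the glutaredoxin gene Glrx at -1.33 ± 0.22, of Rapgef4, which encodes the cAMP sensor EPAC2, at -1.27 ± 0.28, of Rab19 at -1.44 ± 0.26 and of the sterol-binding protein gene Osbpl1a at -1.21 ± 0.25. Abcg3, a transporter gene, had 0.568, 2.13 and 2.15 CPM with Dex+IL-1B, against 4.31, 6.55 and 6.01 CPM with Dex and was lower at -1.75 ± 0.35. Its near-identical relatives could share its reads. Scml4, a gene of a Polycomb-type protein, had 16.3, 13.6 and 16.1 CPM with Dex+IL-1B, against 28.6, 60.2 and 25.7 CPM with Dex, with Dex 2 apart from the other Dex libraries, and its change of -1.32 ± 0.32 (adjusted p = 0.0199) was not called when any 1 of Dex+IL-1B 1, 2 and 3 and Dex 2 was left out (adjusted p = 0.0535 to 0.0651).

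The largest rises held, beside the cytokines, genes with varied roles and little expression with Dex. Lad1, the gene of a protein of epithelial anchoring filaments, had 279, 220 and 280 reads with Dex+IL-1B, against 2, 1 and 2 reads with Dex. The fitted change of 7.40 ± 0.58 (adjusted p = 1.27e-05) rests on 5 reads in the Dex group. Mylk, the gene of myosin light chain kinase, was measured at 6.69, 6.86 and 7.46 CPM with Dex+IL-1B, against 0.256, 0.669 and 0.0807 CPM with Dex and rose by 4.39 ± 0.47 (adjusted p = 0.000101), or 5.35 without Dex 2. Pdzk1ip1, a small membrane protein gene, had 10.7, 7.16 and 6.87 CPM with Dex+IL-1B, against 0.768, 0.223 and 0.403 CPM with Dex and rose by 4.12 ± 0.37 (adjusted p = 2.05e-05). All 3 were near 0 in every Dex library. Ubd, which encodes the ubiquitin-like modifier FAT10 that TNF and interferon are known to induce, stood at 15.1, 10.1 and 15.5 CPM with Dex+IL-1B, against 1.88, 1.69 and 1.45 CPM with Dex and rose by 3.02 ± 0.27 (adjusted p = 2.05e-05). Hrh2, the histamine H2 receptor gene, had 9.21, 6.31 and 7.75 CPM with Dex+IL-1B, against 1.28, 1.60 and 1.49 CPM with Dex and rose by 2.40 ± 0.20 (adjusted p = 1.27e-05). Sema3b, a secreted semaphorin gene, rose by 3.10 ± 0.49 and Vash1, the gene of the tubulin carboxypeptidase vasohibin, by 2.77 ± 0.36.

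The effect of IL-1B on Dex-treated cells was then set beside its effect on cells without Dex, measurements that share no library. Of the 1876 genes called here, 1474 were also called for IL-1B against untreated, all in the same direction. Without Dex 2 the shared count was 781, without untreated 2 it was 923 and without Dex+IL-1B 1 it was 935. Each of the 2 effects held 1 library high in genes overlapping ribosomal RNA, Dex+IL-1B 1 and IL-1B 2. IL-1B 2 had 14036 CPM of them, against 3732 and 3497 CPM in IL-1B 1 and 3. The shared count was 1662 without both of these libraries and 1625 without IL-1B 2. The 1474 were 78.6% of the calls with Dex and 49.8% of the 2959 calls without it, where 21.4% of all genes tested were called. The count of 2959 was 1555 without untreated 2. For 1869 of the 1876 genes the estimate had the same sign. Across the 13821 genes the 2 log2 fold changes had a Pearson r of 0.70 and a Spearman rho of 0.68, a description over genes that are not independent replicates and that share one estimate of spread. Whether the effect itself differed was tested as the interaction in the same fit. EdgeR's quasi-likelihood test called 0 genes after adjustment, with 427 at an unadjusted p under 0.05, limma-voom called 0 and DESeq2 1. With 1 library left out edgeR again called 0, and the 427 ran from 233 without Dex 1 to 944 without Dex 2, with 242 without untreated 1, 284 without Dex 3, 677 without IL-1B 3 and 808 without untreated 3. This does not show that IL-1B acted alike in both settings, since the intervals for single genes were wide.

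The 1 gene called by DESeq2 was Pim2, whose rise exceeded that without Dex by 0.71 ± 0.147 (DESeq2 adjusted p = 0.0306). In edgeR the difference was 0.70 ± 0.14, with a 95% interval of 0.40 to 1.00 and an adjusted p of 0.989. Without Dex, Pim2 had 470.3, 395 and 493 CPM with IL-1B alone, against 317, 316 and 279 CPM in untreated cells, so that it was the Dex libraries that were lowest of all. For Il17f the difference was 1.10 ± 0.32 (0.40 to 1.80). Without Dex this gene had 472, 477 and 507 CPM with IL-1B alone, against 171, 104 and 85.7 CPM in untreated cells. The libraries with Dex+IL-1B lay on both sides of those with IL-1B alone, and the Dex libraries lay below the untreated ones. For Il17a the difference was 0.49 ± 0.42 (-0.43 to 1.40), for Il2 0.05 ± 0.42 (-0.86 to 0.95), and for Csf2 0.51 ± 0.94 (-1.52 to 2.54). Each of these 3 intervals spans 0. Nfkbia differed by 0.59 ± 0.16 (0.23 to 0.94) and Tnip1 by 0.47 ± 0.15 (0.16 to 0.78), intervals that lie above 0 before any adjustment over genes. Klf9, whose estimate without Dex was 0.02 ± 0.10, differed by -0.57 ± 0.13 (-0.85 to -0.28). In the opposite direction Klf2, a factor that keeps T cells quiescent, had 39.9, 56.8 and 57.8 CPM with Dex+IL-1B, against 70.5, 143 and 90.1 CPM with Dex, and 21.1, 23.9 and 24.7 CPM with IL-1B alone, against 163, 118 and 68.1 CPM in untreated cells. Its change was -0.97 ± 0.31 with Dex, not called, and -2.32 ± 0.33 without, a difference of 1.35 ± 0.44 (0.38 to 2.32). None of these differences passed adjustment in edgeR. With no true difference in any gene, an unadjusted cut at 0.05 would be expected to take more of the 13821 genes than the 427 found with all libraries. An unadjusted interval that leaves out 0 is thus weak ground for any single gene here.

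**Figure D4:**
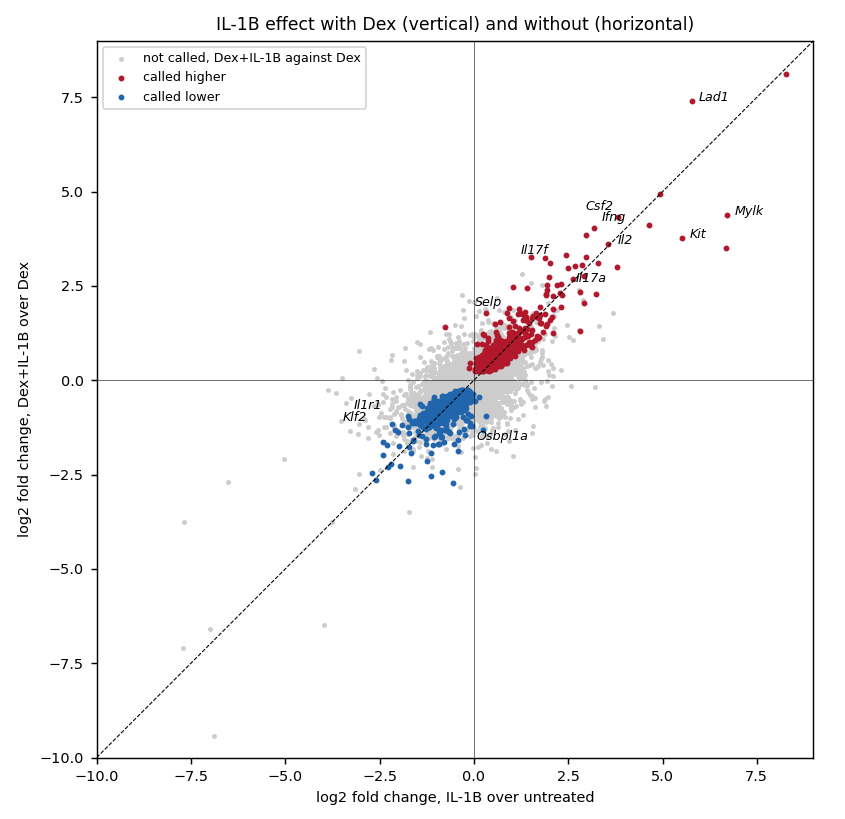
Log2 fold change of Dex+IL-1B over Dex (vertical axis) against that of IL-1B over untreated (horizontal axis) for the 13821 genes tested, with the dashed line where both are equal. Genes called for Dex+IL-1B against Dex lie along that line in the upper right and lower left, with 1869 of 1876 of the same sign on both axes.

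Lists of markers of other cells were read against the 13.6% of all genes that were called. The 14 B cell markers tested had 0 calls, with summed levels of 125.8 to 142.6 CPM with Dex+IL-1B and 121.0 to 147.5 CPM with Dex. Of 21 myeloid markers 7 were tested and 0 called, with sums of 70.28 to 71.48 CPM with Dex+IL-1B and 67.08 to 77.89 CPM with Dex, and Lyz2 and S100a8 had 0 reads in all 6 libraries. Among 8 markers of gamma delta T cells and innate lymphoid cells the growth factor receptor gene Kit was higher, at 3.47, 4.82 and 3.96 CPM with Dex+IL-1B, against 0.128, 0.401 and 0.363 CPM with Dex (3.76 ± 0.53, adjusted p = 0.000732), and Il7r lower. Sums over the whole list were 286.3 to 371 CPM with Dex+IL-1B and 372.7 to 550.5 CPM with Dex, which did not overlap. Of 7 cytotoxic markers tested the NK receptor genes Klrd1, at -0.76 ± 0.16, and Klrc1, at -1.45 ± 0.38, were lower, the second not called when any 1 of Dex+IL-1B 1 and 2 and Dex 2 and 3 was left out (adjusted p = 0.0615 to 0.0777), and Ncr1 had 0 reads. By estimate 5 of the 7 were lower and 2 higher, the latter Cd8a and Cd8b1, neither called (adjusted p = 0.0633 and 0.149). Cd8a stood at 4.984 to 5.926 CPM with Dex+IL-1B and 3.118 to 4.434 CPM with Dex. Cd8b1 had 6.908 to 8.434 CPM with Dex+IL-1B and 4.276 to 6.523 CPM with Dex. The sums of the cytotoxic list were 22.95 to 25.56 CPM with Dex+IL-1B and 25.75 to 28.14 CPM with Dex. The chemokine receptor gene Ccr4, the 1 called of 5 Th2 markers tested, was higher by 0.63 ± 0.17 and not called when any 1 of Dex+IL-1B 1, 2 and 3 and Dex 2 was left out (adjusted p = 0.0595 to 0.0782). The whole Th2 list summed to 275.2 to 296.7 CPM with Dex+IL-1B and 137.5 to 223.1 CPM with Dex, of which Ccr4 alone made up 254.7 to 277.0 CPM with Dex+IL-1B and 120.3 to 204.6 CPM with Dex. The Th2-defining genes were low and not called: Gata3, the lineage factor, stood at 3.467 to 3.791 CPM with Dex+IL-1B and 3.880 to 6.993 CPM with Dex (adjusted p = 0.287), and the cytokine gene Il4 at 1.639 to 4.086 CPM with Dex+IL-1B and 4.321 to 5.121 CPM with Dex (adjusted p = 0.155). The part of other cells in the results above was not tested.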

How the data were processed

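The deposited table holds raw, unnormalized counts of reads per gene for the 12 samples, and all of its value columns were used (0 left over). STAR 2.7.0a, HTSeq 0.6.1, DESeq2 and the build GRCm38 are named per the submitters' processing notes, without their settings. Whether reads were counted by strand is not given in the sources used here, and reads of overlapping or antisense genes cannot be told apart. Of 35275 gene identifiers 34490 matched a GENCODE symbol on GRCm38.

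Counts were tested in R 4.3.3 with edgeR 4.0.16 (TMM scaling, the edgeR filter on group, robust quasi-likelihood) in a one-way model of the 4 groups with 8 residual degrees of freedom. Genes left out held 0.0562% of counts. The contrasts were Dex+IL-1B minus Dex, IL-1B minus untreated, and their difference, each adjusted by Benjamini-Hochberg over 13821 genes. Total counts of 16904106 to 30445734 leave little counting error except in genes with few reads, and PCR copies of 1 molecule were counted as separate reads.

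The comparison, the gene lists and the rule for named genes were chosen with earlier results of these data known. The rule took the 12 largest rises and 12 largest falls among called genes whose groups did not overlap and whose higher group reached 5 CPM (leaving out model numbers, pseudogenes and receptor segments), a panel of 23 genes whatever their values, and up to 4 called members of each list with the smallest adjusted p. Other list members are given by their change alone, and some genes that the rule takes are not reported here.

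On simulated counts for 13635 genes of this comparison, the test called 38.8% of genes given a 1.5-fold change, 68.7% of those given a 2-fold change, 81.8% of those given a 4-fold change and 7 genes given none. For the difference of the 2 effects the shares were 10.4%, 53.7% and 72.7%. The genes changed numbered 67, 67 and 66, a far smaller share than the 13.6% called in the data. Counts were drawn independently around 1 mean per gene, so no simulated library stood apart as a whole. These shares therefore need not hold for the data. Alternatives were DESeq2 1.42.0, limma-voom 3.58.1, median-ratio scaling, 2 other filters, a replicate block, the 6 libraries alone, a test against a 1.5-fold change, each library left out, and both libraries high in genes overlapping ribosomal RNA left out.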

Additional observations from a re-analysis of the deposited data

How the results depend on the processing

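The 1876 calls of Dex+IL-1B against Dex became 2400 with DESeq2, which gave no adjusted p for 9692 of 22715 genes, 1849 with limma-voom, 1865 with median-ratio scaling, 1712 with no filter, 1950 at 1 CPM in 3 libraries and 1814 with the 6 libraries alone. Leaving out 1 library gave 915 (without Dex 2) to 2597 (without IL-1B 2), with 1051 without Dex+IL-1B 1, 1210 without Dex+IL-1B 3 and 1239 without Dex 3. Both libraries high in genes overlapping ribosomal RNA left out gave 2079, and a test against a 1.5-fold change 73. Replicate numbers are shared by the groups, and no label says whether they pair the libraries. Deviations of libraries with the same number correlated at 0.119, -0.136 and 0.184, against -0.268 to 0.201 for different numbers. With 3 libraries a group these values cannot show or exclude pairing. With the replicate block 1778 genes were called. The difference of the IL-1B effect with and without Dex had 0 calls in every edgeR and limma-voom setting and 1 with DESeq2. Of 110 called named genes 83 kept their call in each of 20 alternative runs. The test against a 1.5-fold change was not among these 20. Estimates that changed sign, none of them called, were those of Dusp1, Il23r and Per1. With 1 library left out Dusp1 ran from -0.03095 (without Dex+IL-1B 2) to 0.1905, Il23r from -0.1394 to 0.01667 (without Dex+IL-1B 3) and Per1 from -0.1612 to 0.03708 (without Dex+IL-1B 1). Per1 was at 0.03485 without both libraries high in genes overlapping ribosomal RNA. Genes with few reads in Dex, such as Csf2, Ifng, Il22 and Lad1, have folds limited by depth. The causes were not tested.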

Other observations

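Immediate early and AP-1 genes split by member. Of 25 tested 4 were higher and 5 lower, or 3 and 2 without Dex 2, with a median of 0.13. The share called was 36.0%, against 13.6% of all genes tested. Beside Batf and Myc the higher ones were Mafk, a small MAF factor gene, at 0.73 ± 0.18, and Ier5, a gene of the immediate early response, at 78.5, 81.3 and 85.8 CPM with Dex+IL-1B, against 57.1, 61.2 and 61.2 CPM with Dex, a rise of 0.45 ± 0.10 (edgeR adjusted p = 0.01). The lower ones were Bach1, a repressor of antioxidant genes, at -0.69 ± 0.11 (adjusted p = 0.0016), Fos at -0.63 ± 0.19, Egr2 at -0.50 ± 0.12, Egr3 at -0.57 ± 0.14 and Nr4a2 at -0.74 ± 0.19. The call of Mafk was lost when Dex 2 was left out (adjusted p = 0.0631), that of Fos when any 1 of Dex+IL-1B 1, 2 and 3, Dex 1, 2 and 3, IL-1B 1, untreated 2 and 3 was left out (adjusted p = 0.0506 to 0.154), that of Egr2 when any 1 of Dex+IL-1B 2 and 3 and Dex 2 was left out (adjusted p = 0.0519, 0.0773 and 0.068), that of Egr3 when Dex 2 was left out (adjusted p = 0.075) and that of Nr4a2 when any 1 of Dex+IL-1B 1 and 3 and Dex 3 was left out (adjusted p = 0.083, 0.0637 and 0.109). Of 15 phosphatase and Sprouty genes that curb MAP kinases, the 1 called (6.67%) was Dusp8. It had 44, 22 and 38 reads with Dex+IL-1B, against 1, 6 and 5 reads with Dex, a rise of 3.32 ± 0.62 (adjusted p = 0.00389).

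Adhesion genes also moved both ways, with 3 of 19 higher and 4 lower (36.8% called, against 13.6% of all genes tested) and a median of -0.06. The total was 4 without Dex+IL-1B 1, 4 without Dex+IL-1B 3 and 4 without Dex 2. Selp, the gene of P-selectin, was measured at 11.4, 9.76 and 13.8 CPM with Dex+IL-1B, against 2.90, 4.41 and 2.86 CPM with Dex and rose by 1.78 ± 0.19 (adjusted p = 0.000101). Icam1, the ligand of the integrin LFA-1 and a known NF-kB target, had 39.4, 43.6 and 41.4 CPM with Dex+IL-1B, against 22.9, 24.9 and 24.5 CPM with Dex and rose by 0.78 ± 0.12 (adjusted p = 0.00115). Integrin genes changed in both directions: Itgb1 was higher by 0.47 ± 0.14, a call lost when any 1 of Dex+IL-1B 1 and 3, Dex 2 and 3, IL-1B 1, untreated 2 was left out (adjusted p = 0.057 to 0.163), whereas Itgb7, a chain of the gut-homing integrin, was lower at 221, 232 and 229 CPM with Dex+IL-1B, against 323, 414 and 339 CPM with Dex (-0.66 ± 0.12, adjusted p = 0.00382), as was Itga6 at -0.61 ± 0.09 (adjusted p = 0.00103). Gpr183, an oxysterol receptor that positions lymphocytes, had 53.3, 51.2 and 64.3 CPM with Dex+IL-1B, against 26.7, 37.9 and 33.6 CPM with Dex and rose by 0.78 ± 0.13 (adjusted p = 0.00236).

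Of the 4 lower genes past a 1.5-fold change, P2rx7 and Phf11b are outside the lists and were named after their values were seen. P2rx7, the gene of an ATP-gated channel, had 13.4, 13.8 and 13.4 CPM with Dex+IL-1B, against 24.6, 28.7 and 26.3 CPM with Dex, a change of -0.97 ± 0.11 (edgeR adjusted p = 0.000106). Phf11b, a gene with near-identical neighbours, had 15.8, 18.5 and 19.6 CPM with Dex+IL-1B, against 35.4, 48.5 and 39.8 CPM with Dex, a change of -1.20 ± 0.15 (adjusted p = 0.000289). In both genes the groups did not overlap.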
